A study of Homo sapiens with 15 samples.

Results

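The genes described here are 54 genes of DNA replication and S phase, listed by symbol for their roles and matched by Ensembl identifier to 54 of the 58219 genes of the count table. The rule that chose them uses no measured value, but the list was made with earlier results of these data known. They were measured by RNA sequencing of poly-A RNA in 15 libraries of BEAS-2B cells, an established line of human bronchial epithelium, grown on collagen-coated plates in serum-free bronchial medium. Libraries fell into 5 groups of 3, one library from each of 3 experiments, with separate experiments for the 24-h and the repeated protocol. The 24-h groups were vehicle control, fine particulate matter (PM2.5) at 1 µg/cm2 and PM2.5 at 30 µg/cm2. Those of 7 d were the control of the repeated protocol and PM2.5 at 1 µg/cm2 given daily. The PM2.5 was the same in all treated groups, a water extract of filters sampled in Beijing. In the repeated protocol the labels give 7 daily doses, while the methods give 6 with collection on day 7, and those cells were plated at a lower density and washed each day. BEAS-2B cells carry genes of an adenovirus-SV40 hybrid virus, and SV40 large T antigen binds the RB family and p53, which limits the line as a model of normal cell cycle control.

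A human cell copies its DNA once per cycle. Before S phase, ORC, CDC6 and CDT1 load the MCM2-7 helicase at origins (licensing), and CDC45 and the GINS complex then join the helicase and activate it. Primase and the polymerases alpha, delta and epsilon make the new strands, PCNA is the sliding clamp that RFC loads, and ribonucleotide reductase, TYMS and TK1 supply nucleotides. Many of these genes are transcribed in late G1 and S phase by E2F factors, which the RB family holds in check, whereas genes of G2 and mitosis are mostly controlled through CHR and CCAAT elements, with MuvB complexes such as DREAM at the CHR. In bulk RNA, fewer cells in S phase and less RNA per cell cannot be told apart.

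Library totals ran from 21460981 to 34724765 gene counts. Every one of the 54 genes passed the filter on low counts, with the lowest level at E2F2 (22 to 96 counts per library) and the highest at PCNA (9705 to 21325). Experiment 2 of the 24-h protocol stood apart: the median absolute log2 difference over all genes tested was 0.37 to 0.59 between it and experiments 1 and 3 of the same group, against 0.11 to 0.18 between experiments 1 and 3. Counts for the 24-h comparisons are therefore given with and without it. Of the markers of bronchial epithelium, KRT5, KRT7, KRT8, KRT18, KRT19, EPCAM, CDH1 and TP63 were detected in all groups, while defining markers of ciliated cells (FOXJ1, TEKT1), secretory cells (SCGB1A1, MUC5AC), leukocytes (PTPRC, CD3E, CD68) and endothelium (PECAM1, CDH5) had group means of at most 0.35 CPM (counts scaled to a common library size of 1000000). The mesenchymal markers VIM and FN1 were also high, with 24-h control means of 532 ± 131 and 1769 ± 744 CPM. In the 7-d controls VIM and FN1 were at 234 ± 11.1 and 657 ± 28.7 CPM (SD, n = 3). Of the epithelial markers 4 were called higher there (KRT19, EPCAM, CDH1 and TP63) and 3 lower (KRT7, KRT8 and KRT18), and of the 5 mesenchymal ones 3 were called lower (VIM, CDH2 and FN1). The part of this in the differences between the controls was not tested.

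Promoter windows of RefSeq on GRCh38.p14, which run from 250 bases before to 50 bases after a gene's start, were matched for 46 of the 54 genes. They were searched on both strands for a strict E2F word (TTTCCCGC, TTTCGCGC, TTTGCCGC or TTTGGCGC), for CCAAT and for the CHR word (TTTGAA). An E2F word lay in a window of 23 of the 46 genes (50.0%), against 6.32% of the 12101 genes tested that had a window. It also lay in 36.7% of 49 matched genes from a list of other replication genes and in 9.09% of matched G2/M genes. CCAAT lay in 63.0% of the 46 genes and 42.2% of the genes tested. For the other replication genes this share was 59.2%, and for the matched G2/M genes it was higher, at 75.8%. The CHR word was found in only RRM1 and UNG, which is 4.35% of the 46, against 13.8% of the genes tested and 69.7% of 33 matched genes from a list of 39 G2/M genes. Windows of these lists were close in base composition, with a median GC content of 65.0% for the replication genes, 61.7% for the G2/M genes and 64.3% for the genes tested. A match is a description of letters and not of a bound site.

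**Figure D1:**
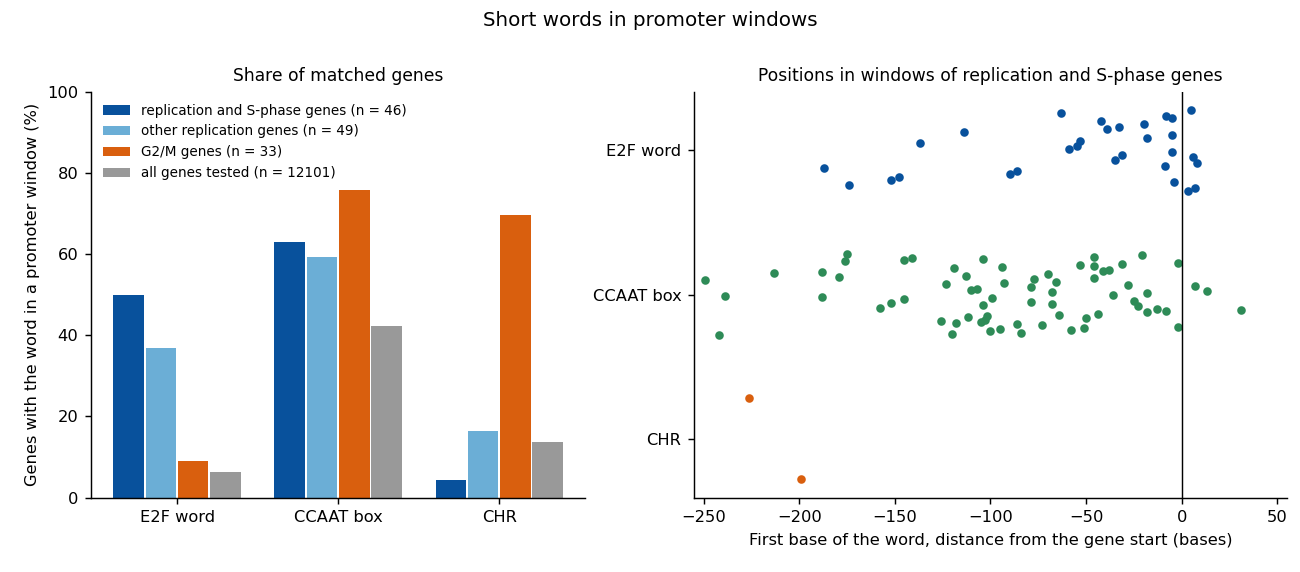
Left, the percentage of genes with each word in any of their promoter windows, for 4 sets of genes, with the number of matched genes in the key. Right, the position of each word in the windows of the replication and S-phase genes, in bases from the gene start, where the vertical spread within a row only separates the points. The E2F word was most frequent in the replication genes (50.0%) and the CHR word in the G2/M genes (69.7%).

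These windows belong to genes that differed between both controls. They are those with the largest log2 fold-changes in that comparison among called genes with at least 1 of the words in their first window. CCNE1 and FEN1 were also called but held none of the words, and PRIM1 held CCAAT but no E2F word. Sequences run 5′ to 3′ on the gene's strand, and capitals mark E2F words and CCAAT, the latter also as its reverse complement ATTGG.
MCM6 (chr2:135876394-135876693, minus strand): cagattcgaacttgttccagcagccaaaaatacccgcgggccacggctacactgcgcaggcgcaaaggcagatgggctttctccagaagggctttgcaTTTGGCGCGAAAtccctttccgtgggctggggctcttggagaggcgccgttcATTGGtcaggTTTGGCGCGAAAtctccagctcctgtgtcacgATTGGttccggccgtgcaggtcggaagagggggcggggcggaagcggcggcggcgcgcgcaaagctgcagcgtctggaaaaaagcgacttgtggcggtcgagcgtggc
E2F1 (chr20:33686336-33686635, minus strand): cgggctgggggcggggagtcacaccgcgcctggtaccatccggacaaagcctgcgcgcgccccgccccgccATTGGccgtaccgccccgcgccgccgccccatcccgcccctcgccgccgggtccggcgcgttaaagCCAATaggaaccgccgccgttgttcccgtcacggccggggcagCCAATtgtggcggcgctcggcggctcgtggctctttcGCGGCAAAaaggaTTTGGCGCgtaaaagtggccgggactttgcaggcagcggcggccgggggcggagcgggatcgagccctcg
CDT1 (chr16:88803539-88803838, plus strand): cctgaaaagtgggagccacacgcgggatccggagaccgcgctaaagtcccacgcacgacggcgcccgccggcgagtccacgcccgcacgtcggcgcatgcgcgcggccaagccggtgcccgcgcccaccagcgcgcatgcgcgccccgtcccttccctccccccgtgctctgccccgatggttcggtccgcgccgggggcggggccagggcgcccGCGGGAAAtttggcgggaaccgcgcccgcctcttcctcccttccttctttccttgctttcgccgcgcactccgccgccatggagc
RFC3 (chr13:33817899-33818198, plus strand): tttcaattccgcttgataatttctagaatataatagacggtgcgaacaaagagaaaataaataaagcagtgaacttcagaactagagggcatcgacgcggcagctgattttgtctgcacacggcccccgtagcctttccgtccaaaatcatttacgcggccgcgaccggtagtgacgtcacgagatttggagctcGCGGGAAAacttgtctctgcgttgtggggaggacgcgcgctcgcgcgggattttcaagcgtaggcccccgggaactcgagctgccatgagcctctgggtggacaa
RRM2 (chr2:10122489-10122788, plus strand): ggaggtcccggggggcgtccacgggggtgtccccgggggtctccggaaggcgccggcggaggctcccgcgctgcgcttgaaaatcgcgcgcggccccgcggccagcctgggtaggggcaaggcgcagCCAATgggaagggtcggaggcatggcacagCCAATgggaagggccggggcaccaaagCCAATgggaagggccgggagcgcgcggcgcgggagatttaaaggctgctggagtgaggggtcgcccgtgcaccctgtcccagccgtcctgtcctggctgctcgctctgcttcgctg
MCM6, a helicase subunit, held 4 E2F words, which lie in 2 places where a word on each strand overlaps the other, and 2 CCAAT words. E2F1, itself an E2F factor, held 2 E2F words just before its start and 3 CCAAT words. In CDT1 and RFC3 there was 1 E2F word each. RRM2, the small subunit of ribonucleotide reductase, held 3 CCAAT words and no E2F word in these letters. MCM6, RFC3 and RRM2 were lower and E2F1 and CDT1 higher in the 7-d than in the 24-h controls, so genes with the E2F word stood on both sides of that comparison.

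Levels were compared between genes only as CPM per kilobase of exon. In the 24-h controls PCNA led with 449.7 ± 71.4 (SD, n = 3), followed by TK1, thymidine kinase of the salvage pathway (221 ± 67.6), MCM7 (133 ± 12.4), MCM3 (121 ± 15.9), RRM1 (102 ± 4.92) and the flap nuclease FEN1 (100.2 ± 8.18). PCNA and TK1 stood apart from the rest, while MCM7 and MCM3 did not differ beyond their spread, nor did RRM1 and FEN1. The 6 helicase subunits MCM2 to MCM7, which act as a complex of 1 copy each, did not have equal values on this scale. MCM7 and MCM3 were followed by MCM2 (70.3 ± 2.12), MCM4 (69.0 ± 6.42), MCM6 (58.5 ± 5.27) and MCM5 (30.9 ± 5.09). Exon length here joins all annotated exons of a gene, 7338 bases for MCM5 and 6824 for MCM4 against 3650 for MCM3. The order of these subunits therefore depends in part on the annotation and was not compared with transcript lengths. At the low end were CCNE2 (5.08 ± 0.9) and CCNE1 (3.82 ± 0.275), the E-type cyclins that drive CDK2 at S-phase entry, and E2F2 (0.356 ± 0.122). In the 7-d controls PCNA (321 ± 15.1), TK1 (138 ± 6.41) and MCM7 (100.1 ± 2.74) again led, and E2F1, at 90.6 ± 3.72, had moved from rank 15 to rank 4. Of the CCNE2 exons, 37.0% overlap INTS8 on the other strand, and 18.8% of TYMS overlaps ENOSF1, so that, with the strand of counting not given, their levels are uncertain.

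**Figure D2:**
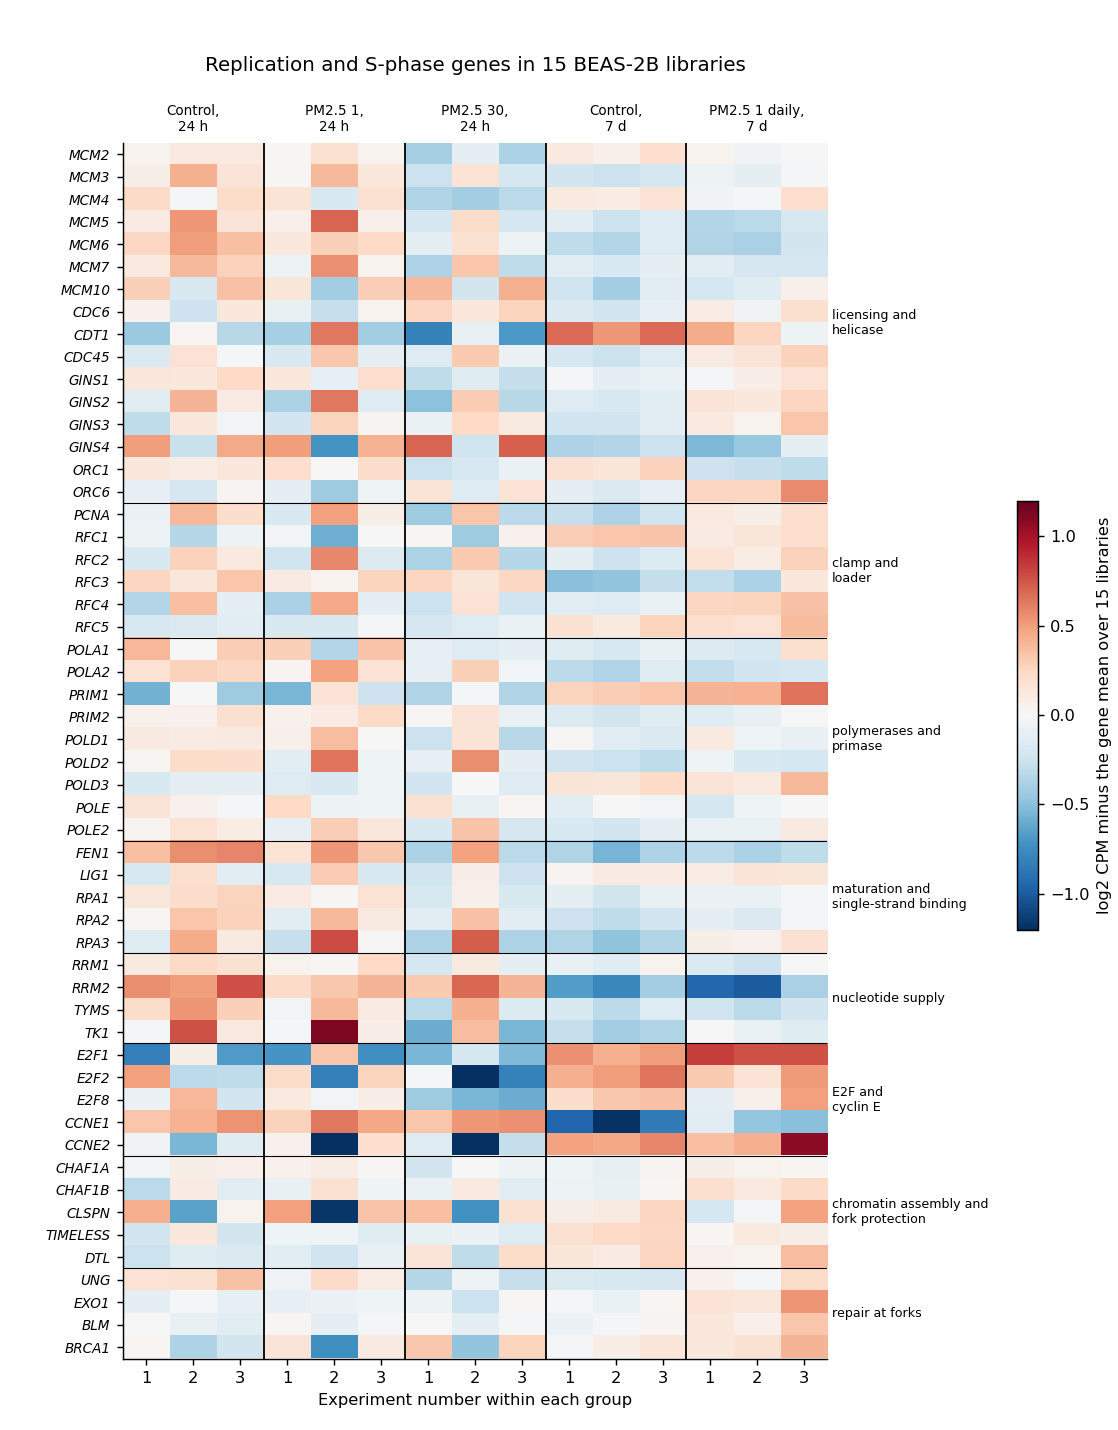
Heat map of log2 CPM of the 54 genes (rows, by role) in 15 libraries (columns, by group and experiment), each gene centred on its mean over all libraries. Colors beyond 1.2 in either direction are clipped. Experiment 2 of the 24-h protocol differed from experiments 1 and 3 in each of its 3 groups, for example in CLSPN, GINS4 and TK1, and CCNE1 and RRM2 were lower in all 6 libraries of the repeated protocol.

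The first comparison asked how a single high concentration changed these genes within 24 h. None of the 54 genes was called between 30 µg/cm2 and control in edgeR's quasi-likelihood test, where a gene was called if its Benjamini-Hochberg adjusted p over all genes was under 0.05 and its log2 fold-change reached 0.6 in either direction. The share called among all 17599 genes tested was 8.07%. At an unadjusted p under 0.05 there were 10 of the 54, and DESeq2 called 0. The share of all genes under that unadjusted p was not counted, here or in the comparisons below. Such counts therefore have no background to be set against. The log2 fold-changes were small and mostly negative, with 37 of 54 below 0 and a median of -0.11, against 0.03 for all genes tested. Median differences within experiments 1, 2 and 3 were -0.17, -0.09 and -0.27.

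By the adjusted p alone, without a minimum fold-change, 5 of the 54 genes fell and 0 rose, which is 9.26% against 5.19% of all genes tested that fell and 4.86% that rose. They were the helicase subunits MCM2 and MCM4, the GINS subunit GINS1, the repressor E2F8, and UNG, the uracil-DNA glycosylase that acts at forks. MCM4 had 498, 420.1 and 494 CPM in controls of experiments 1, 2 and 3, and 329, 318 and 339 CPM at 30 µg/cm2. The groups did not overlap, and the log2 fold-change was -0.52 ± 0.12 (SE, edgeR quasi-likelihood test, adjusted p = 0.0166). MCM2 had 333, 350.0 and 351 CPM in controls and 245, 298 and 249 CPM at 30 µg/cm2. All 3 treated libraries were lower than all controls, with a log2 fold-change of -0.39 ± 0.11 (edgeR, adjusted p = 0.034). GINS1 fell from 122, 121 and 131 to 90.1, 101 and 91.3 CPM, a log2 fold-change of -0.41 ± 0.11 (edgeR, adjusted p = 0.0246). UNG fell from 76.1, 76.7 and 86.6 to 53.6, 65.0 and 55.9 CPM, a log2 fold-change of -0.46 ± 0.11 (edgeR, adjusted p = 0.0214). For E2F8, the control values of 31.5, 43.6 and 28.1 CPM were uneven, whereas at 30 µg/cm2 they were 24.5, 22.6 and 21.8 CPM. The log2 fold-change was -0.58 ± 0.17 (edgeR, adjusted p = 0.0479). Its highest control was that of experiment 2, and without 24-h experiment 2 E2F8 did not pass (-0.37, edgeR, adjusted p = 0.0571). The groups did not overlap in 9 of the 54 genes that were lower (16.7%, against 11.1% of all genes) and in 0 that were higher (11.7% of all genes).

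Because libraries of the same experiment number share a batch, the comparison was repeated with the experiment as a replicate block, which changed how many genes passed. With the block and the adjusted p alone, 17 of the 54 genes fell (31.5%, against 14.4% of all genes) and 1 rose (1.85%, against 15.3%). Without 24-h experiment 2 in place of the block, 25 fell (46.3%, against 20.5%) and 2 rose (3.70%, against 17.8%), and the median was -0.25. That setting leaves 2 libraries in each 24-h group. Here and below, it and the block, each with the adjusted p alone, were chosen after seeing the data. By role, the genes that fell with the block were 9 of 16 for licensing and helicase, 2 of 4 for nucleotide supply, 2 of 5 for strand maturation and single-strand binding, and 1 each for clamp and loader, polymerases and primase, E2F and cyclin E, and repair at forks. None of the 5 genes of chromatin assembly and fork protection (CHAF1A, CHAF1B, CLSPN, TIMELESS, DTL) passed with the block. The 2 genes that rose without 24-h experiment 2 were DTL (0.39, edgeR, adjusted p = 0.00574) and BRCA1 (0.38, edgeR, adjusted p = 0.00644).

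Each of the subunits MCM2 to MCM7 was among those that fell with the block, with log2 fold-changes of -0.39, -0.32, -0.51, -0.32, -0.36 and -0.38 for MCM2, MCM3, MCM4, MCM5, MCM6 and MCM7 (edgeR, adjusted p from 0.000947 to 0.0165). ORC1 (-0.29), GINS1 (-0.41) and GINS2 (-0.30) fell as well. CDC6, which loads the helicase together with CDT1, was the gene that rose with the block. It had 176, 143 and 185 CPM in controls and 202, 185 and 205 CPM at 30 µg/cm2, and was higher in 3 of 3 experiments. Its blocked log2 fold-change was 0.24 (edgeR, adjusted p = 0.0326). Without 24-h experiment 2, CDC6 did not pass (0.16, edgeR, adjusted p = 0.171). In contrast, MCM10, CDC45, GINS3, GINS4, ORC6 and CDT1 did not pass with or without the block. Their unblocked log2 fold-changes were 0.06, 0.05, 0.15, 0.18, 0.15 and -0.26. CDT1 fell by the adjusted p alone when 24-h experiment 2 was left out (-0.38, edgeR, adjusted p = 0.0245).

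FEN1, which trims Okazaki fragment flaps, had 225, 258 and 262 CPM in controls and 134, 244 and 139 CPM at 30 µg/cm2. Experiments 1 and 3 were far below their controls and experiment 2 was close to its own, with within-experiment log2 differences of -0.75, -0.08 and -0.91. The log2 fold-change was -0.52 ± 0.19 (edgeR, adjusted p = 0.105), -0.57 with the block (edgeR, adjusted p = 0.00531), and -0.85 without 24-h experiment 2, where FEN1 was called. TK1 was the other gene called in that setting, at -0.64 (3.70% of the 54 called lower, against 9.95% of all genes). Its levels were 324, 556 and 355 CPM in controls and 217, 421 and 224 CPM at 30 µg/cm2, with within-experiment log2 differences of -0.58, -0.40 and -0.67. Experiment 2 was the highest library in both groups, and TK1 passed with the block but not without it (edgeR, adjusted p = 0.000731 and 0.351). TYMS, thymidylate synthase, fell with the block (-0.37, edgeR, adjusted p = 0.0082). RRM1 and RRM2 did not pass with or without it (-0.24 and -0.13 unblocked). PCNA (-0.32), RPA1 (-0.30) and POLA1 (-0.35), the catalytic subunit of polymerase alpha, also fell with the block. The clamp loader subunits RFC1 to RFC5 did not pass with or without the block, with log2 fold-changes from -0.18 (RFC2) to 0.05 (RFC1). The same held for the polymerase subunits POLA2, PRIM1, PRIM2, POLD1, POLD2, POLD3, POLE and POLE2, from -0.23 (POLD1) to 0.07 (PRIM1). LIG1, RPA2 and RPA3 were at -0.09, -0.17 and -0.06, and EXO1, BLM and BRCA1 at -0.03, 0.03 and 0.26. E2F1, E2F2, CCNE1 and CCNE2 were at 0.00, -0.61, 0.04 and -0.26, and none of these passed with or without the block. Without 24-h experiment 2 and by the adjusted p alone, RRM1, RFC2, POLA2, POLD1, POLD2, POLE2, RPA2 and RPA3 also fell and BRCA1 rose.

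Genes of the later cell cycle moved further at this concentration. Of the 39 G2/M genes, 22 were called lower (56.4%, against 4.24% of all genes tested) and 0 higher, with a median log2 fold-change of -0.75. The mitotic kinesin KIF20A (-1.53), the kinetochore protein CENPF (-1.05), ANLN (-0.98), cyclin B1 (CCNB1, -0.98) and MKI67 (-0.94) fell most. Of 63 other replication genes, 4 were called lower (6.35%, against 4.24% of all genes). They were FBXO5 (-0.85), an inhibitor of the anaphase-promoting complex, cyclin A2 (CCNA2, -0.78), SKP2 (-0.78) and CDK2 (-0.61). MCM9 (0.70) was the 1 called higher (1.59%), where 8.07% of all genes were called in either direction. The list's median of -0.08 was close to that of the 54 genes. Among 26 G1/S regulators, the CDK inhibitor CDKN1A (p21) rose (1.61 ± 0.21, edgeR, adjusted p = 0.000355) and E2F6 rose (0.63), whereas the inhibitors CDKN1C (-3.30), CDKN2C (-1.85) and CDKN1B (-0.70) fell. CDKN1A had 168, 275 and 186 CPM in controls and 709, 476 and 729.5 CPM at 30 µg/cm2.

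**Figure D3:**
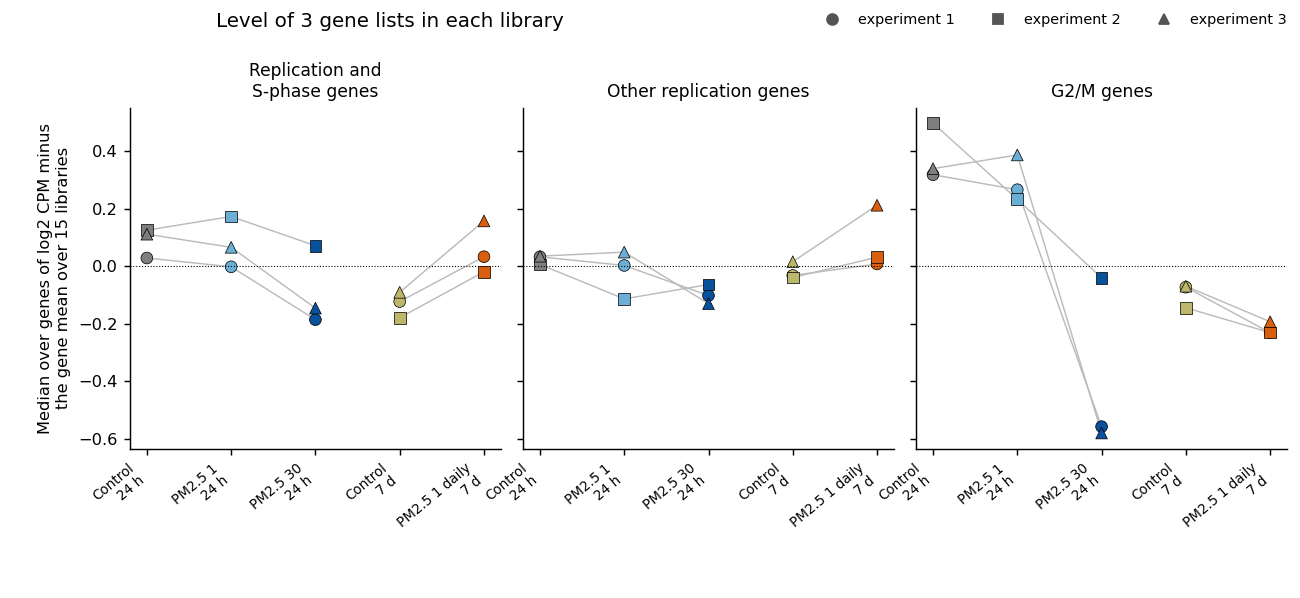
Each point is 1 library: the median over the genes of a list of log2 CPM minus the gene's mean over 15 libraries, with lines joining libraries of the same experiment within a protocol. The G2/M genes in the libraries at 30 µg/cm2 sat at -0.56, -0.04 and -0.58, all below every 24-h control, while the second of them lay above the 7-d controls (-0.07, -0.14 and -0.07), whereas the 54 replication and S-phase genes there sat at -0.19, 0.07 and -0.15.

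The 54 genes took 0.709%, 0.770% and 0.706% of all counts in the libraries at 30 µg/cm2, against 0.790%, 0.908% and 0.813% in their controls. This share was lower in each of the 3 experiments. The epithelial markers moved as well: 5 of the 8 were called lower at 30 µg/cm2, namely KRT5 (-2.46), KRT19 (-1.48), KRT8 (-0.85), KRT7 (-0.79) and CDH1 (-0.70), while TP63 (-0.62), KRT18 (-0.45) and EPCAM (-0.16) did not pass. Their summed level was 1576 to 2635 CPM, against 3673 to 4189 CPM in controls. Of the 5 mesenchymal markers, PDGFRB was called lower (-1.60), and their summed level was 1633 to 2633 against 1722 to 2885 CPM. The part of these markers in the differences of the 54 genes was not tested.

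At 1 µg/cm2 for 24 h the question was whether a low single concentration had any effect on these genes. None was called, and none had an unadjusted p under 0.05 in edgeR, nor did DESeq2 call any. The share called of all genes was 0.0625%. Without 24-h experiment 2, none of the 54 passed the adjusted p either, and the lowest was 0.18 (TYMS, edgeR). The median log2 fold-change was 0.01 for the 54 genes, equal to that of all genes (0.01), and values ran from -0.29 (RRM2) to 0.26 (CDT1). RRM2 had 330.0, 316 and 381 CPM in controls and 262, 279.6 and 296 CPM at 1 µg/cm2, and was the only 1 of the 54 whose groups did not overlap (1.85% lower and 0 higher, against 2.13% lower and 2.31% higher of all genes). CDT1 had 57.2, 117 and 56.5 CPM at 1 µg/cm2 against 55.6, 76.7 and 59.9 in controls, where the difference lay in experiment 2 alone. The median SE was 0.15 on the log2 scale (0.09 to 0.38). For a typical gene in this fit, changes under 0.3 could not be shown even by an unadjusted p. Larger changes could be missed as well, since a call needed the adjusted p over all genes and the minimum fold-change. The lack of calls therefore does not exclude changes above 0.3.

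Set against 1 µg/cm2, the cells at 30 µg/cm2 showed a similar list, in which the treated libraries are the same as above. Again 0 of the 54 genes were called (7.84% of all genes), 8 had an unadjusted p under 0.05 and DESeq2 called 0. With the adjusted p alone, MCM2 (-0.38), MCM4 (-0.43) and E2F8 (-0.58) fell, 5.56% of the 54 against 5.13% of all genes. E2F8 had 35.9, 32.4 and 34.9 CPM at 1 µg/cm2 and 24.5, 22.6 and 21.8 CPM at 30 µg/cm2, with no overlap. Without 24-h experiment 2, E2F8, FEN1 and TK1 were called lower, each at -0.63 (5.56% of the 54, against 9.97% of all genes), and by the adjusted p alone 19 fell (35.2%, against 18.3%) and 2 rose (3.70%, against 16.2%). With the block, TK1 was called lower (-0.65, edgeR, adjusted p = 0.000218; 1.85% of the 54 against 8.58% of all genes), and with the block and the adjusted p alone 13 genes fell (24.1%, against 14.9%) and 3 rose (5.56%, against 16.6%). The 3 that rose were CDC6 (0.32), GINS4 (0.32) and ORC6 (0.25), all of the licensing and helicase group, where 8 of 16 fell. CDC6 was higher at 30 µg/cm2 in all 9 pairs of libraries, at 202, 185 and 205 CPM against 160.0, 140.1 and 175 CPM at 1 µg/cm2.

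Daily exposure to 1 µg/cm2 was compared with the control of the same protocol. None of the 54 genes was called in the unblocked test (0.227% of all genes), while 7 had an unadjusted p under 0.05 and DESeq2 called 1, CCNE1. The direction of most fold-changes was the opposite of that at 30 µg/cm2 for 24 h: 36 of 54 were above 0, with a median of 0.10 against 0.01 for all genes, and medians within experiments 1, 2 and 3 of 0.04, 0.09 and 0.18. The groups did not overlap in 23 genes that were higher (42.6%, against 21.3% of all genes) and in 5 that were lower (9.26%, against 21.6%). The 5 lower ones were MCM2, CDT1, ORC1, RFC1 and TIMELESS. The genes' share of all counts was 0.855%, 0.855% and 0.929% after daily exposure and 0.790%, 0.781% and 0.813% in controls, higher in each experiment. Markers moved the other way: KRT5 (-0.93) and TP63 (-0.99) were called lower, 7 of the 8 epithelial markers (all but EPCAM) and 3 of the 5 mesenchymal ones (VIM, FN1 and PDGFRB) were lower without overlap. The summed level was 1963 to 2237 against 3003 to 3580 CPM for the epithelial and 599 to 625 against 918 to 1009.6 CPM for the mesenchymal markers, and their part in the differences of the 54 genes was not tested.

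With the replicate block, 1 gene was called, CCNE1, which rose (1.85% of the 54, against 1.60% of all genes that rose). CCNE1 had 3.72, 3.18 and 4.05 CPM in controls and 6.61, 5.23 and 5.12 CPM after daily exposure, and the groups did not overlap. Its log2 fold-change was 0.63 ± 0.16 without the block (edgeR, adjusted p = 0.13) and 0.62 with it (edgeR, adjusted p = 0.0141). At the adjusted p alone, the block gave 9 genes that rose (16.7%, against 4.88% of all genes) and 1 that fell (1.85%, against 7.32%). Without 24-h experiment 2, whose spread enters the shared fit, 15 rose (27.8%, against 11.6%) and 3 fell (5.56%, against 13.6%).

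Among the 9, PCNA and 2 subunits of its loader rose with the block. PCNA had 479, 448 and 491 CPM in controls and 629, 607 and 665 CPM after daily exposure, a log2 fold-change of 0.42 (edgeR with block, adjusted p = 0.0176). Within the 3 experiments the differences were nearly equal, at 0.39, 0.44 and 0.44. RFC4 (128, 127 and 133 against 168, 169 and 179 CPM) and RFC2 (109, 99.3 and 106 against 132, 125 and 143 CPM) rose by 0.41 and 0.35 on the log2 scale, whereas RFC1, RFC3 and RFC5 did not pass (-0.17, 0.25 and 0.07 unblocked). Of the helicase group, CDC45 (0.38), GINS2 (0.34) and GINS3 (0.37) rose with the block, while GINS1 and GINS4, the other subunits of the GINS complex, did not pass (109, 103 and 106 against 109.8, 117 and 125 CPM and 25.0, 25.3 and 27.0 against 22.2, 23.6 and 29.9 CPM). Likewise, the 6 subunits MCM2 to MCM7 did not pass, with unblocked values from -0.12 (MCM2) to 0.17 (MCM3). RPA3, the smallest subunit of the single-strand binding protein RPA, rose (0.50, edgeR with block, adjusted p = 0.019), and RPA1 and RPA2 were at 0.08 and 0.16 without passing.

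The 2 origin recognition subunits in the list moved in opposite directions. ORC6 had 71.1, 67.9 and 71.5 CPM in controls and 91.6, 91.4 and 113 CPM after daily exposure, a log2 fold-change of 0.49 ± 0.13 without the block and 0.49 with it (edgeR, adjusted p = 0.149 and 0.0055). ORC1 had 56.7, 55.2 and 60.4 CPM in controls and 41.9, 41.0 and 40.4 CPM after daily exposure, -0.48 ± 0.10 without the block and -0.48 with it (edgeR, adjusted p = 0.0655 and 0.00561). Neither gene's groups overlapped, so ORC1 was lower and ORC6 higher in every treated library. ORC1 was also lower at 30 µg/cm2 for 24 h (41.7, 43.6 and 47.1 CPM against 54.8, 53.2 and 54.3 CPM in controls), again without overlap, and passed there with the block (-0.29, edgeR, adjusted p = 0.0173).

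Other genes did not pass with or without the block. When 24-h experiment 2 was left out of the fit, CDC6 (0.25), TK1 (0.28), E2F1 (0.29), CHAF1B (0.22), UNG (0.27) and EXO1 (0.31) also rose by the adjusted p alone. CDT1 (-0.40) and RFC1 (-0.17) then also fell. The values that follow are from the unblocked fit with all libraries. The nucleotide genes RRM1, RRM2, TYMS and TK1 were at -0.08, -0.14, -0.04 and 0.27, and E2F1, E2F2, E2F8 and CCNE2 at 0.29, -0.19, -0.13 and 0.15. All 4 repair genes, UNG, EXO1, BLM and BRCA1, had positive values (0.27, 0.31, 0.20 and 0.17), and 8 of the 9 polymerase and primase genes did as well, with a median of 0.09. Of the 39 G2/M genes 0 were called, their median was -0.12, and 20 were lower and 3 higher without overlap (against 21.6% lower and 21.3% higher of all genes). The difference between both lists was not tested. Of the 63 other replication genes, 0 were called and the median was 0.08. Among the G1/S regulators 0 were called, and CDKN1A was at 0.00.

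**Figure D4:**
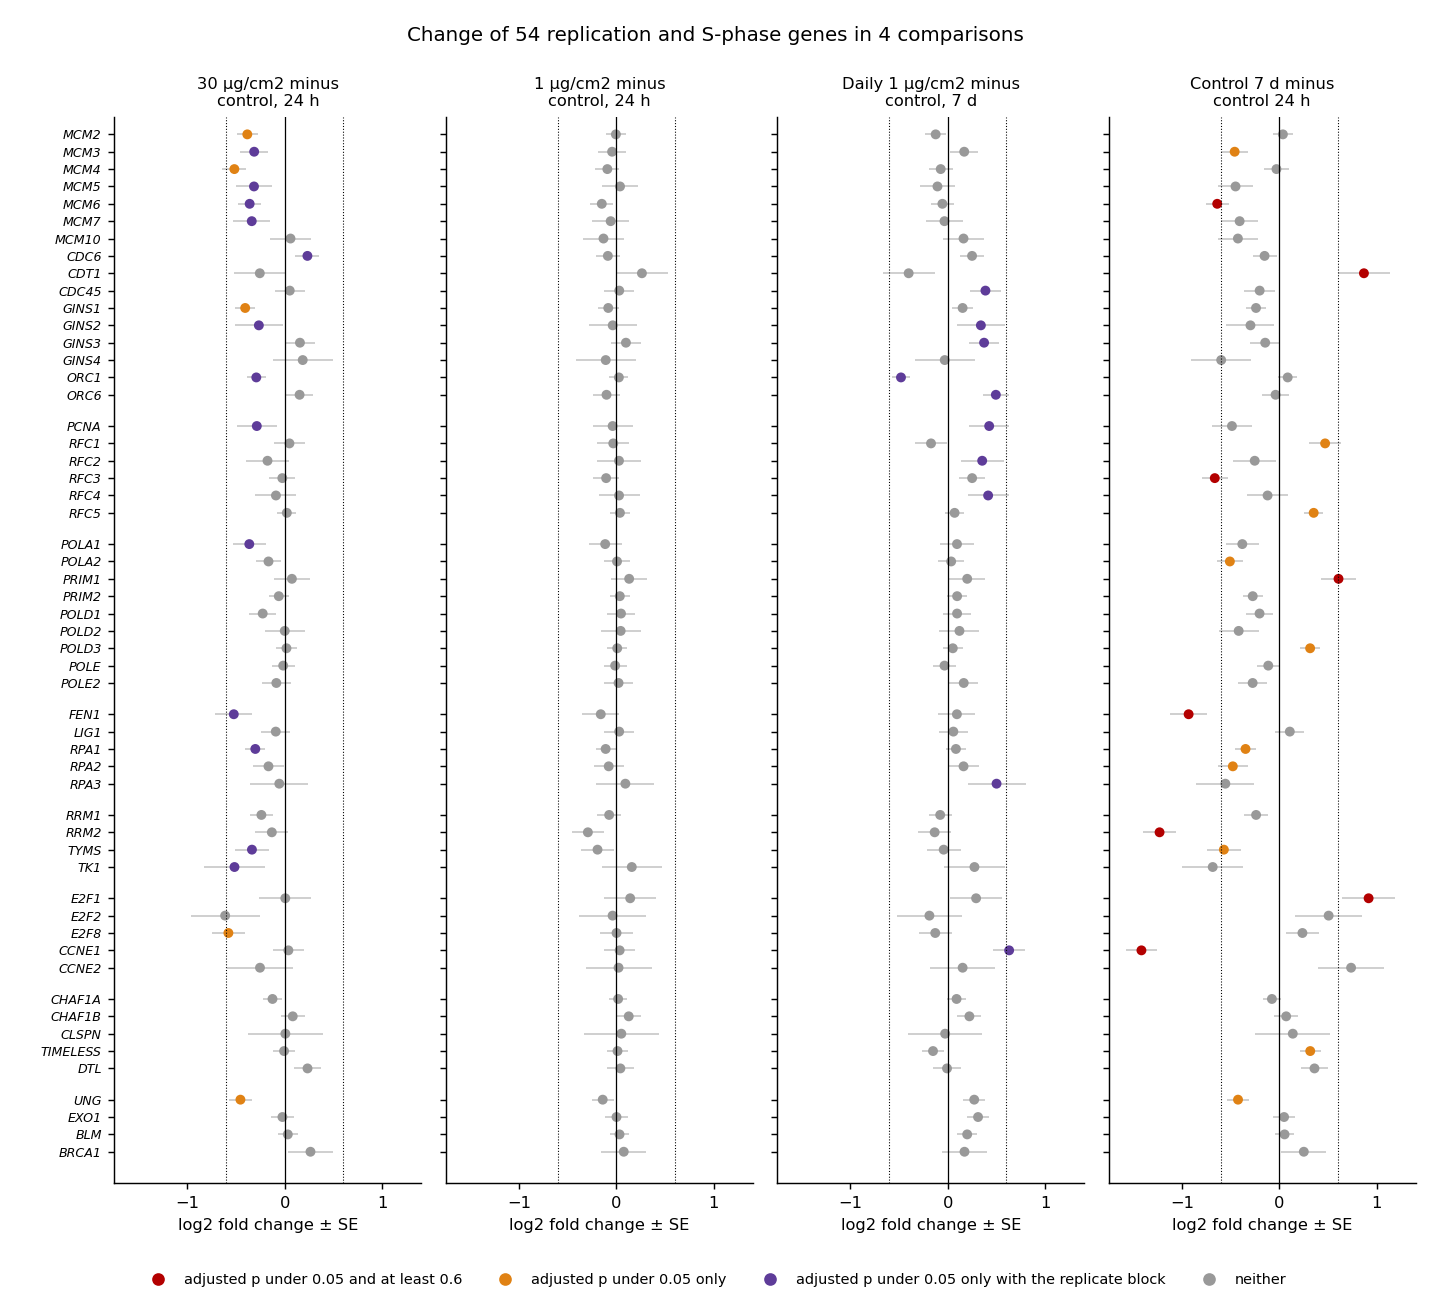
Log2 fold-changes of the 54 genes (rows, by role) with their SE from the unblocked fit in 4 comparisons, where dotted lines mark 0.6 in either direction and colors show which test a gene passed. At 30 µg/cm2 for 24 h the colored points lie mostly below 0, and after daily exposure mostly above 0. The block could not be used in the comparison of the controls.

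The controls of both protocols were compared because they show how far these genes differ without PM2.5. They are separate experiments with different plating densities, washes and days in culture, so that time and experiment cannot be told apart. Here 8 of the 54 genes were called. There were 5 lower in the 7-d controls (9.26%, against 10.8% of all genes) and 3 higher (5.56%, against 11.1%), so the shares were below those of all genes. The median was -0.20, against 0.02 for all genes. At the adjusted p alone 11 fell (20.4%, against 14.6%) and 7 rose (13.0%, against 14.4%). Without 24-h experiment 2 as well, 26 fell (48.1%, against 26.9%) and 11 rose (20.4%, against 27%). The groups did not overlap in 23 that were lower (42.6%, against 24.7%) and 10 that were higher (18.5%, against 27.6%).

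Those called lower were CCNE1 (chr19:29811898-29824308), RRM2 (chr2:10122328-10131419), FEN1 (chr11:61792637-61797244), RFC3 (chr13:33818049-33966558) and MCM6 (chr2:135839626-135876426). CCNE1 had 9.09, 9.65 and 10.5 CPM in the 24-h and 3.72, 3.18 and 4.05 CPM in the 7-d controls, a log2 fold-change of -1.41 ± 0.16 (edgeR, adjusted p = 5.01e-05). RRM2 had 330.0, 316 and 381 CPM and 140.1, 131 and 167 CPM, a log2 fold-change of -1.23 ± 0.17 (edgeR, adjusted p = 0.000185). Both genes were far outside the spread of the other group. FEN1 went from 225, 258 and 262 to 136, 119 and 135 CPM (-0.93 ± 0.19, edgeR, adjusted p = 0.00279), RFC3 from 101, 92.8 and 106 to 59.7, 60.9 and 69.0 CPM (-0.66 ± 0.13, edgeR, adjusted p = 0.00252), and MCM6 from 221, 264 and 239 to 151, 146 and 168 CPM (-0.64 ± 0.12, edgeR, adjusted p = 0.00128). MCM6 was at -0.58 without 24-h experiment 2 and at -0.60 without 7-d control 2, and then missed the minimum fold-change.

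E2F1 (chr20:33675683-33686404), CDT1 (chr16:88803213-88809258) and PRIM1 (chr12:56731596-56752373) were called higher. E2F1 had 91.0, 169 and 100.2 CPM in the 24-h and 235, 217 and 228 CPM in the 7-d controls, a log2 fold-change of 0.92 ± 0.27 (edgeR, adjusted p = 0.0213). CDT1, the licensing factor, had 55.6, 76.7 and 59.9 CPM and 121, 108 and 121 CPM (0.87 ± 0.27, edgeR, adjusted p = 0.027). PRIM1, the catalytic primase subunit, had 53.2, 79.1 and 58.9 CPM and 94.8, 97.2 and 99.2 CPM (0.61 ± 0.18, edgeR, adjusted p = 0.0241). In all 3 genes experiment 2 was the highest 24-h control and closest to the 7-d values, and without it the log2 fold-changes were 1.23, 1.00 and 0.78. The calls of E2F1 and CDT1 were lost when 24-h control 1 or 3 was left out, at 0.71 and 0.77 for E2F1 and 0.74 and 0.79 for CDT1, and also without 7-d control 1 or 3 for E2F1 or any one of the 7-d controls for CDT1. PRIM1 lay at the minimum fold-change and was not called with other scalings and tests, for example at 0.58 with RLE scaling or DESeq2. PRIM1 shares 1.35% of its exon length with NACA on the same strand, a gene at a far higher level.

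Within roles, the nucleotide genes RRM1, RRM2, TYMS and TK1 were lower without overlap in all 4 cases (median -0.63), and FEN1, RPA1, RPA2 and RPA3 in 4 of 5 genes of maturation and single-strand binding. In the polymerase group 6 of 9 were lower without overlap, where the share over all genes was 24.7% lower and 27.6% higher, with POLA2 passing the adjusted p (-0.51), while POLD3 (0.32) and PRIM1 rose. The loader subunits split, with RFC3 lower, RFC1 (0.47) and RFC5 (0.35) higher by the adjusted p alone, and RFC2 (-0.25) and RFC4 (-0.12) not passing. The cyclins E also had opposite signs: CCNE2 was at 0.74 (edgeR, adjusted p = 0.119), with 25.5, 17.9 and 23.7 CPM in the 24-h and 36.6, 36.0 and 39.2 CPM in the 7-d controls. Of the G2/M genes 11 were called lower (28.2%, against 10.8% of all genes) and 0 higher (against 11.1% of all genes). In the other replication genes 3 were called lower (4.76%), among them ASF1A (-0.82) and DUT (-0.78). Another 6 were called higher (9.52%), with RRM2B (1.08), ATAD5 (1.05) and MCM9 (1.01) in front. Both shares of the other replication genes were below those of all genes. Among the G1/S regulators, cyclins D1 and D2 (CCND1, -2.58, and CCND2, -2.67) had the lowest fold-changes. CCND1 had 147, 12.2 and 135 CPM in the 24-h and 17.9, 16.5 and 15.1 CPM in the 7-d controls, so that 24-h control 2 lay below every 7-d control and the fold-change came from experiments 1 and 3. CCND2 had 24.2, 5.84 and 27.1 and 2.09, 3.15 and 3.73 CPM, without overlap but also lowest by far in 24-h experiment 2. CDKN2A (-0.80) and CDKN2B (-0.73) fell too, and LIN52 (1.04), CDKN1A (0.73) and TFDP2 (0.66) rose.

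**Figure D5:**
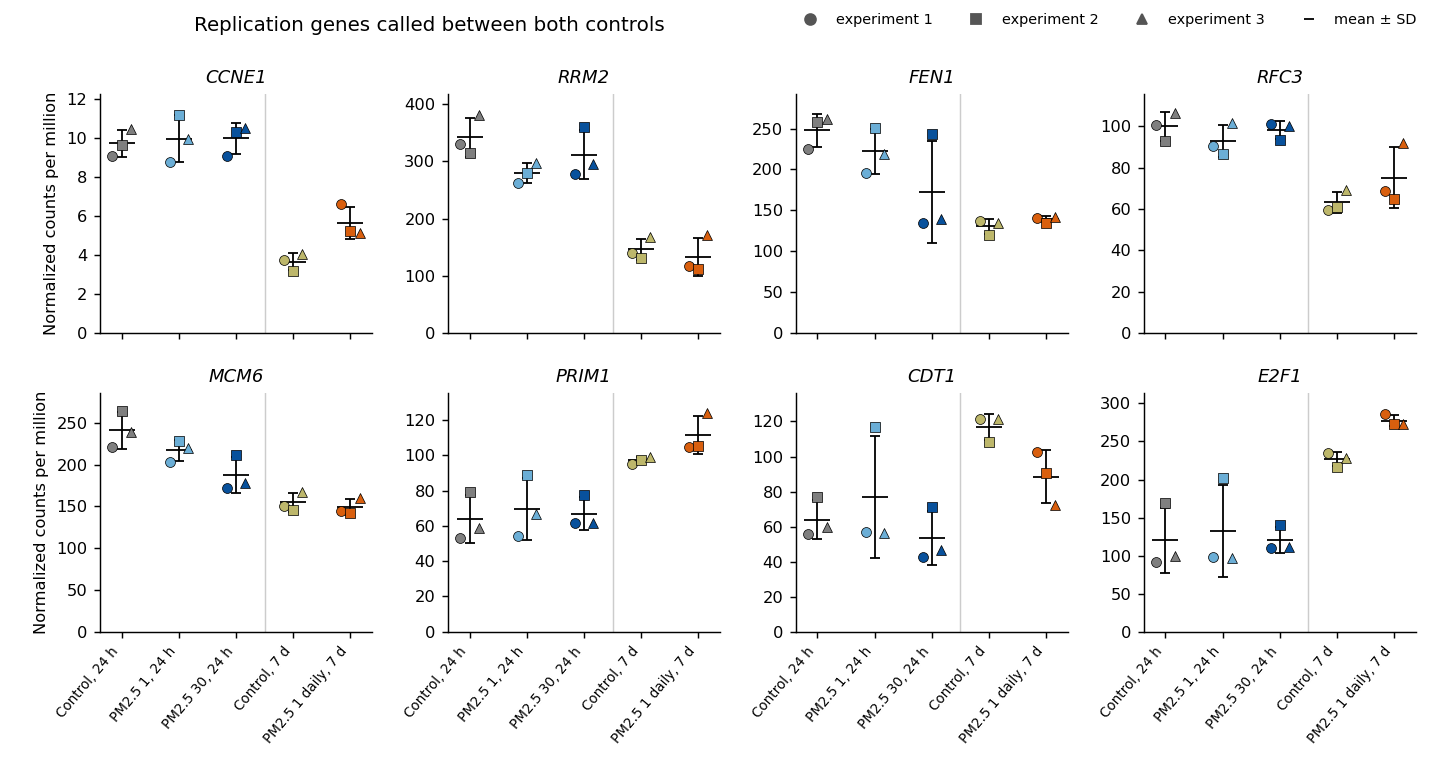
Normalized CPM of the 8 genes called between the controls, in all 15 libraries, with the mean and SD of each group (n = 3) and the experiment as the marker. CCNE1 sat at 3.18 to 4.05 in the 7-d controls, below all 24-h libraries, and at 5.12 to 6.61 after daily exposure, and E2F1 was above every 24-h library in all 6 libraries of the repeated protocol.

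Last, the response to 1 µg/cm2 in the repeated protocol was compared with that at 24 h as a difference of both fold-changes. In edgeR 0 of the 54 genes and 0% of all genes were called, with 4 of the 54 at an unadjusted p under 0.05 and 0 called by DESeq2. The difference was above 0 in 42 of the 54, with a median of 0.11 against -0.01 for all genes. With the block and the adjusted p alone 1 gene passed, ORC6, whose response was higher in the repeated protocol by 0.59 on the log2 scale (edgeR, adjusted p = 0.0475; 1.85% of the 54, against 0.449% of all genes). The next were ORC1 (-0.50, adjusted p = 0.0559 in edgeR with block) and CDC45 (0.37, adjusted p = 0.0942), which did not pass. Without 24-h experiment 2 and by the adjusted p alone, the response was higher in the repeated protocol in 10 genes (18.5%, against 9.74%) and lower in 2 (3.70%, against 10.7%). The 10 were CDC6, CDC45, GINS2, ORC6, PCNA, RFC2, RFC4, RPA3, CCNE1 and UNG, from 0.35 (CDC6) to 0.68 (CCNE1), and the 2 were ORC1 (-0.56) and TIMELESS (-0.28). Since doses had been given once or daily and the controls came from separate experiments, the dose schedule and the experiment cannot be told apart.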

How the data were processed

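RNA was measured in 15 libraries, 3 experiments for each of 5 groups read from the sample labels. The authors deposited counts per gene without normalization, from single-end reads of 50 bases, and the exon length of each gene. The methods give STAR on GRCh38, and the submitters' processing notes list hg19, STAR and featureCounts. Gene positions in the table were those of GRCh38. Options and strand of counting are not given in the sources used here. Members and lists were chosen with earlier results of these data known.

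Counts were analysed with edgeR 4.0.16 in R 4.3.3. filterByExpr kept 17599 of 58219 genes, libraries were scaled by TMM, as are all CPM, and a quasi-likelihood model (earlier mode) with 1 mean per group was fitted to all 15 libraries and tested on simulated data. SEs are the fold-change divided by the root of its F statistic. Per the series record, the last number of a label is the experimental batch. Deviations from group means correlated at 0.12 to 0.72 between libraries sharing protocol and number (median 0.49), against -0.68 to 0.45 for different numbers. In the repeated protocol the same numbers reached only 0.18, 0.12 and 0.16, against -0.13 to -0.03 for different ones, so the pairing there was weak. At 24 h the lowest value for the same number was 0.20, below the highest for different numbers. The numbers were used as a replicate block within each protocol. Alternatives were other scalings, filters and tests (DESeq2 1.42.0), left-out libraries and the call rule. Named genes were all members, the called G1/S regulators, the markers, and the 5 largest called rises and falls of the other lists. Promoter windows are RefSeq's.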

Additional observations from a re-analysis of the deposited data

Results flagged for a closer look

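ORC6, a subunit of the origin recognition complex, stood out because its response to 1 µg/cm2 differed between the protocols in a test of the difference itself with the replicate block, at 0.59 ± 0.12 on the log2 scale (edgeR, adjusted p = 0.0475), but not without it (0.59; edgeR, adjusted p = 0.517). It also passed the adjusted p without 24-h experiment 2 (0.54; edgeR, adjusted p = 0.00828). Within experiments 1, 2 and 3, ORC6 differed from control by -0.02, -0.22 and -0.08 at 24 h and by 0.36, 0.43 and 0.66 after daily exposure, so that it was higher in 3 of 3 experiments of the repeated protocol and lower in 3 of 3 at 24 h.

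The same pattern of signs, with all 3 experiments lower at 24 h and all 3 higher after daily exposure, was seen in MCM3, MCM10, CDC6, GINS1, RFC3, FEN1 and RPA1. The share of all genes with this pattern was not counted. The log2 difference of both responses was 0.212 for MCM3, 0.293 for MCM10, 0.336 for CDC6, 0.235 for GINS1, 0.355 for RFC3, 0.253 for FEN1 and 0.193 for RPA1. None of these differences passed the test of the difference with all libraries (edgeR, adjusted p from 0.760 to 0.907), and without 24-h experiment 2 CDC6 did (0.35; edgeR, adjusted p = 0.0378), while the direction of the 3 experiments was itself not tested. Most of the 24-h differences were small, from -0.01 in GINS1 to -0.25 in FEN1. Some after daily exposure were small as well, such as 0.01 in GINS1 and 0.03 in MCM10 in experiment 1.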

How the results depend on the processing

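Of the 303 recomputed counts and medians of the 54 genes, 256 moved by less than 1.5 times or the spread between experiments, and no direction of a called gene reversed. For 30 µg/cm2 against control, the count of 0 became 1 with upper quartile scaling, 2 without 24-h experiment 2 (the median then -0.25), 5 with the adjusted p alone, 18 with the block and the adjusted p alone, and 27 without experiment 2 and the adjusted p alone. For 30 against 1 µg/cm2 the count of 0 became 1 with upper quartile scaling, 1 with a filter of 1 CPM, 1 with the block, 3 without experiment 2, 3 with the adjusted p alone, 16 with the block added and 21 without experiment 2. After daily exposure it became 1 (CCNE1) with the block, with libraries of the protocol only, with DESeq2 and without 24-h experiment 2, 10 with the block and the adjusted p alone, and 18 without experiment 2 and the adjusted p alone. Between controls the count of 8 became 18 with the adjusted p alone and 37 also without experiment 2. For the difference of both responses, the count of 0 became 1 without experiment 2, 1 with the block and the adjusted p alone, and 12 without experiment 2 and the adjusted p alone. The median at 1 µg/cm2 for 24 h had no stable sign: 0.033 with upper quartile scaling, -0.010 without a filter, 0.025 with the filter of 1 CPM, -0.0073 with the block and -0.021 without experiment 2. The settings that join the adjusted p with the block or with leaving out experiment 2 were chosen after seeing the data.

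When each library was left out in turn, the count at 30 µg/cm2 ran from 0 to 3, highest without the 30 µg/cm2 library of experiment 2 (MCM7, FEN1 and TYMS lower), and its median from -0.26 to -0.079. For 30 against 1 µg/cm2 the count ran from 0 to 2 and the median from -0.27 to -0.055, and the median at 1 µg/cm2 for 24 h from -0.054 to 0.038. Between controls, counts ran from 5, without any one of the 7-d controls, to 10, and medians from -0.30 to -0.16. GINS4, 30 against 1 µg/cm2, ran from -0.013, without the 1 µg/cm2 library of experiment 2, to 0.54, without the 30 µg/cm2 library of experiment 2, and was 0.23 without both of them and the control of that experiment and 0.32 with the block. The blocked fit could not be made between protocols. The cause of these shifts was not tested. Counting error was largest in E2F2 (22 to 96 counts per library) and CCNE1 (98 to 302).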
